A study of Homo sapiens with 12 samples.

Results

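The genes described here are 8 that encode proteins through which tumour cells restrain immune cells: CD274 (PD-L1), PDCD1LG2 (PD-L2), CD276 (B7-H3), PVR (CD155), NECTIN2 (CD112), CD47, NT5E (CD73) and LGALS9 (galectin-9). They were taken by gene symbol from the deposited count tables, 8 of 25433 genes listed in either table. All 8 stood in both tables and all 8 passed the filter on low counts in every comparison, PDCD1LG2 and LGALS9 from low levels. The cells were A549, an established line from a human lung adenocarcinoma.

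Checkpoint ligands bind inhibitory receptors on lymphocytes or macrophages. CD274 and PDCD1LG2 are both ligands of the T cell receptor PD-1, and CD276 is a related B7 protein whose receptor is not settled. PVR and NECTIN2 are nectin-type adhesion proteins that bind the inhibitory receptor TIGIT and the activating receptor CD226 on T and NK cells. CD47 binds SIRPα on macrophages and signals against phagocytosis. NT5E is a surface enzyme that turns AMP into adenosine, which dampens T cells, and LGALS9 is a secreted lectin that binds the T cell receptor TIM-3. In carcinoma cells TGF-β is known as an inducer of the mesenchymal state and of NT5E.

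There were 3 groups of 4 libraries each: A549 cells left without either agent (control), cells given 10 ng/mL TGF-β1 for 2 days, and cells given the same TGF-β1 plus sodium acetate at 40 mM for the same 2 days. All were grown in F-12K medium with serum, and RNA was sequenced as stranded total RNA depleted of ribosomal RNA. The comparisons address what TGF-β1 changed, what acetate changed in its presence, and how far the doubly treated cells stood from control. Acetate was never given alone, and no library had another sodium salt, so effects of acetate, of the sodium load and of osmolarity cannot be told apart. Separate cultures are not named for the 4 libraries of a group in the labels, so p-values cover only the spread among these libraries, and that spread may be technical. Count columns carry library codes and no sample titles. Columns S1 to S4 were taken as control, S15 to S18 as TGF-β1 and S22 to S25 as TGF-β1 with acetate, from the names of the tables and the columns that both share, and every comparison rests on that placement.

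Total counts per library ran from 34698057 to 53938444, and 3 counts equal 0.0556 to 0.0865 CPM (counts scaled to the adjusted library total), a floor that covers counting error only. Within groups no library of the 12 was a duplicate of another, since chi-square statistics per degree of freedom were 3.95 to 17.3. TGF-β1 response genes moved as the labels state: SMAD7, a feedback inhibitor of the TGF-β receptors, was at 36.8 ± 0.996 CPM in control libraries and 92.3 ± 2.22 CPM with TGF-β1 (SD, n = 4). Of the A549 and lung epithelial markers, 9 of 12 tested fell with TGF-β1 and 1 rose. Among the 9, CEACAM6 (4.98 CPM in control and 0.108 CPM with TGF-β1) passed the filter only through control, which fixed its fall. KRT8 was at 2250.3, 2237 and 2525 CPM in control, TGF-β1 and acetate, KRT19 at 36.6, 7.01 and 58.4 CPM, EPCAM at 4.22, 1.08 and 5.63 CPM and AKR1B10 at 3484, 269 and 634 CPM, while NKX2-1 and CDKN2A stood in neither table. Of 21 immune cell markers 12 were in neither table, among them PTPRC, the CD3 genes and LYZ. The summed level of the 7 found in both tables was 14.5 to 17.4 CPM in control, 16.3 to 19.2 CPM with TGF-β1 and 26.6 to 28.3 CPM with acetate, most of it CD68 (11.03 CPM in control and 22.5 CPM with acetate), a lysosomal gene. The other immune markers above 1 CPM in a group were CD14, ITGAM and CSF1R. Endothelial and fibroblast markers summed to 5.14 to 5.68, 16.2 to 19.02 and 62.7 to 69.1 CPM, led by THY1 and LUM, with PDGFRA, PDGFRB and FAP also above 1 CPM in a group and PECAM1, VWF, CDH5, KDR and EMCN in neither table. The part of these 2 marker sums in the changes below was not tested. In these bulk libraries, fewer cells that express a gene and less RNA per cell cannot be told apart.

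With TGF-β1, 6 of the 8 genes rose (PDCD1LG2 among them, which passed the filter only through its treated libraries), PVR and NECTIN2 did not pass, and the median log2 fold change was 0.56 against 0.02 for all tested genes. Among all 22051 genes tested, 66.9% were called, 34.1% higher and 32.8% lower, in edgeR's quasi-likelihood test with Benjamini-Hochberg adjustment (adjusted p below 0.05). When acetate was added, 4 rose and 2 fell (median 0.27, all genes 0.03), with 63.7% of 22336 genes called, 33.3% higher and 30.4% lower. With acetate and TGF-β1 against control, 7 rose (again with PDCD1LG2 among them) and 1 fell (median 1.02, all genes 0.02). There 70.6% of 22742 genes were called, 36.1% higher and 34.4% lower. The 4 libraries of the 2 groups did not overlap for 4, 6 and 8 of the 8 genes in these comparisons, against 61.4%, 57.4% and 64% of all tested genes. With most of the transcriptome called, the number of these genes called either way is close to the background in the first 2 comparisons. The 8 called in the third lie above it, as do the 6 and 7 called higher against control, in a list chosen with earlier results known. The sizes below carry more than the counts. Counts in the lists below are to be read against the same shares. A listed gene below the minimum count in 1 group passed the filter through the other, which fixed its direction. The first and second comparisons share the TGF-β1 libraries, and the third shares libraries with both. When library totals replaced the composition scaling (TMM), the median over all genes moved to -0.09 in the first comparison and to 0.16 in the second, where 67.1% of calls were then higher, against 52.3% with TMM.

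**Figure D1:**
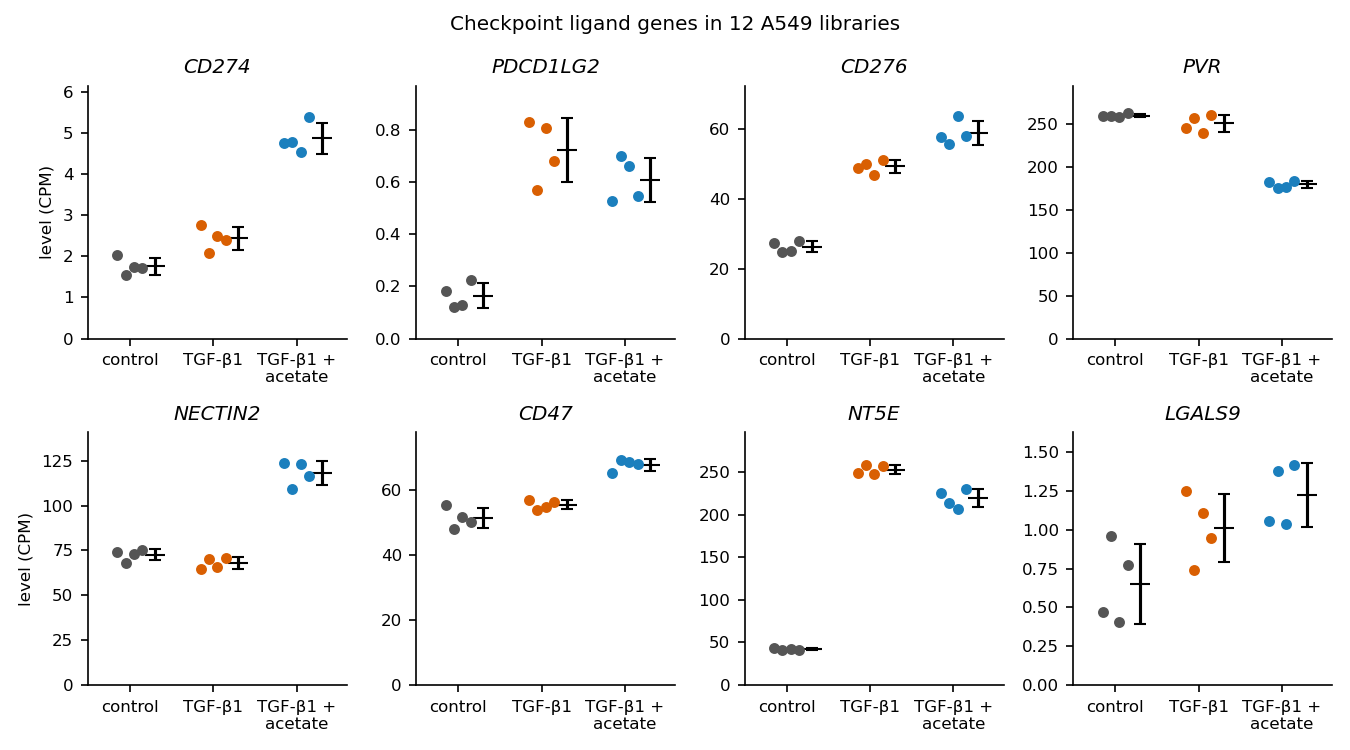
Level of each gene in CPM (vertical axes from 0, a scale of its own per gene) in 4 control, 4 TGF-β1 and 4 TGF-β1 plus acetate libraries, 1 point a library, with the group mean and SD beside them. NT5E sits near 42.2 CPM in control and near 253 and 219 CPM in the treated groups, and PVR is lower only in the acetate libraries, near 180.0 CPM.

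**Figure D2:**
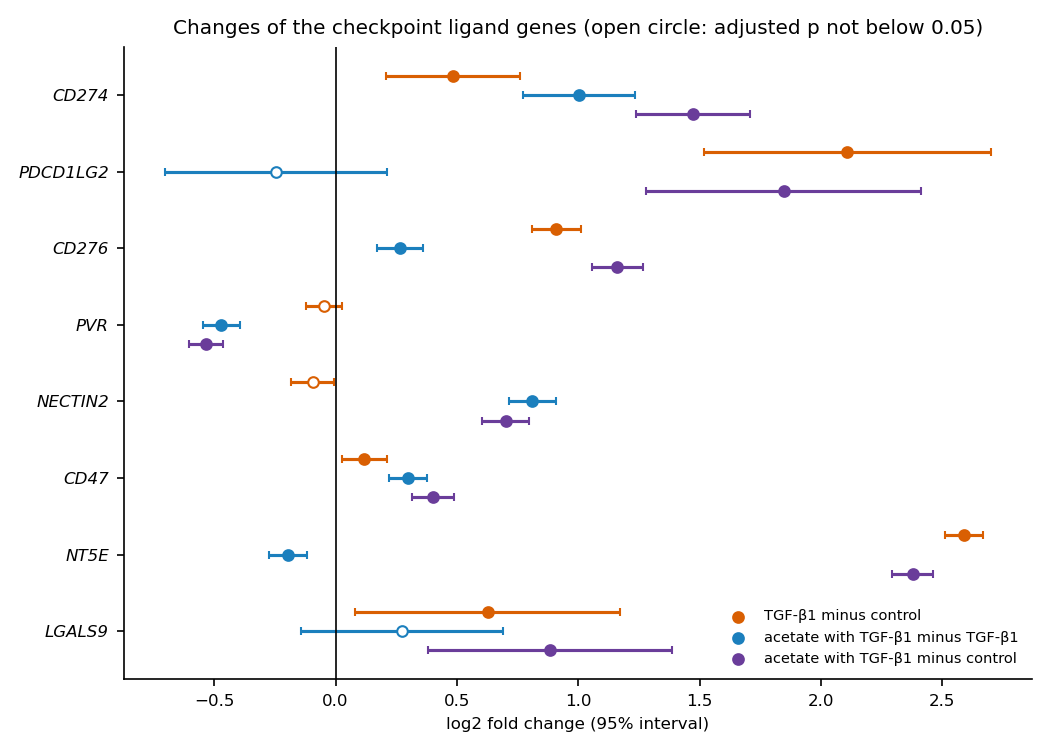
Log2 fold changes of the 8 genes (horizontal axis) with 95% intervals in the 3 comparisons. Filled points passed an adjusted p below 0.05, and open points did not: PVR and NECTIN2 for TGF-β1 against control, PDCD1LG2 and LGALS9 for acetate.

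CD274 encodes PD-L1, the main ligand of PD-1 on tumour cells (ENSG00000120217.13, chromosome 9, 5450503 to 5470566 on hg38). Its level was 2.03, 1.55, 1.74 and 1.71 CPM in control libraries S1 to S4. It was 2.77, 2.08, 2.51 and 2.41 CPM in TGF-β1 libraries S15 to S18, and 4.78, 4.78, 4.54 and 5.40 CPM in acetate libraries S22 to S25. All acetate libraries lay far above the other 8, while the lowest TGF-β1 library barely cleared the highest control library. CD274 thus rose with each step. The log2 fold change was 0.48 ± 0.13 (SE) for TGF-β1 (edgeR adjusted p = 0.0036), or 1.40-fold. Adding acetate gave 1.00 ± 0.11 (edgeR adjusted p = 8.1e-07), or 2.00-fold, and both agents against control gave 1.47 ± 0.11 (edgeR adjusted p = 6.3e-10). These levels rest on 68 to 236 counts per library. An absolute change larger than that of CD274 was found in 39.5% of tested genes for TGF-β1 and in 12.8% for acetate.

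PDCD1LG2, the second PD-1 ligand, starts 40004 bp beyond the end of CD274 on the same strand (ENSG00000197646.7, chromosome 9, 5510570 to 5571254). It was barely detected in control, at 0.184, 0.122, 0.128 and 0.226 CPM, which are 9, 6, 5 and 12 counts. TGF-β1 libraries held 0.833, 0.571, 0.809 and 0.682 CPM and acetate libraries 0.528, 0.702, 0.662 and 0.549 CPM, from 19 to 41 counts. Both treated groups lay wholly above control and overlapped each other. The log2 fold change was 2.11 ± 0.28 for TGF-β1 (edgeR adjusted p = 4.4e-06) and 1.85 ± 0.27 for both agents against control (edgeR adjusted p = 5.2e-06). The difference between acetate and TGF-β1 did not pass at -0.25 ± 0.21 (edgeR adjusted p = 0.33), with a 95% interval of -0.70 to 0.21. Its control libraries lie at or near the minimum count of 10, so PDCD1LG2 passed the filter through the treated groups where it is high. A gene that enters in this way had to differ from control, and both values against control are given as a description. With the filter of 1 CPM it was not tested.

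Within each library, CD274 per kb of transcript was 7.28 ± 1.72 times PDCD1LG2 in control, 2.21 ± 0.158 times with TGF-β1 and 5.28 ± 0.999 times with acetate (SD, n = 4). The range was 4.92 to 8.83 in control, 2.01 to 2.37 with TGF-β1 and 4.42 to 6.38 with acetate. All TGF-β1 libraries were below all others, and control and acetate libraries overlapped. The control ratios rest on 5 to 12 counts of PDCD1LG2, which passed the filter through the treated groups. Their distance from the TGF-β1 ratios is therefore only a description. Such a ratio does not depend on the scaling between libraries. The pairs of genes in ratios were chosen after their levels were seen, so no test is given.

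CD276 encodes B7-H3, a B7 family protein abundant on many carcinomas (ENSG00000103855.17, chromosome 15, 73683966 to 73714518). Control libraries held 27.4, 24.8, 25.1 and 28.1 CPM, TGF-β1 libraries 49.0, 50.2, 47.0 and 51.3 CPM and acetate libraries 57.9, 55.8, 63.9 and 58.0 CPM. The 3 groups formed 3 separate steps without overlap. CD276 rose 1.88-fold with TGF-β1 (log2 fold change 0.91 ± 0.05, edgeR adjusted p = 3.7e-11). Acetate added a smaller rise of 0.27 ± 0.05 (edgeR adjusted p = 9.4e-05), and both agents together gave 1.16 ± 0.05 against control (edgeR adjusted p = 1.1e-13). The ratio of CD274 to CD276 per kb was 0.0635 ± 0.00571 in control, 0.0472 ± 0.00639 under TGF-β1 and 0.0791 ± 0.00874 once acetate was added, so CD276 outnumbered CD274 transcripts in every library.

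Other B7 and butyrophilin genes, a family of T cell costimulators and inhibitors, split with TGF-β1: of 11 tested, 4 rose and 4 fell (median log2 fold change -0.05). Of all genes tested there, 34.1% were called higher and 32.8% lower. With acetate 8 of 10 rose and 1 fell (median 0.82, all genes 0.03), against 33.3% and 30.4% of all genes tested. HHLA2, a B7 protein with activating and inhibitory receptors, went from 0.116 ± 0.0299 CPM in control libraries to 3.86 ± 0.193 with TGF-β1 and 7.06 ± 0.486 with acetate. VSIR, which encodes the inhibitory protein VISTA, went the other way with TGF-β1, from 15.7 ± 0.975 to 3.68 ± 0.276 CPM, and stood at 11.7 ± 0.723 CPM with acetate. VTCN1, which encodes the inhibitory ligand B7-H4, had 26, 33, 37 and 57 counts in control and 0, 0, 1 and 0 with TGF-β1, and is listed in only 1 of the tables. HHLA2 passed the filter on low counts through its TGF-β1 libraries and VTCN1 through control. Their directions with TGF-β1 were thereby fixed, and both are given as a description. BTN2A2 and NCR3LG1, the latter a ligand of the NK receptor NKp30, rose with acetate by log2 fold changes of 0.89 and 0.77. CD86 and BTN1A1 were in neither table.

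Of the 27 genes listed as regulators of PD-L1 (JAK and STAT signalling, transcription factors, and enzymes that stabilise or degrade the protein), 8 rose and 13 fell with TGF-β1 (median log2 fold change -0.08), and 8 rose and 8 fell with acetate (median -0.02). HIF1A, the hypoxia factor subunit, fell with TGF-β1 (-1.24) and rose with acetate (0.83). B3GNT3, a glycosyltransferase that acts on PD-L1, fell from 5.93 ± 0.216 to 1.20 ± 0.174 CPM with TGF-β1 and was at 7.14 ± 0.540 CPM with acetate. NFKB1 fell with acetate by 0.56 on the log2 scale, and EGFR stood 0.94 above control with both agents. All of these log2 fold changes passed at an edgeR adjusted p of at most 7.6e-09.

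RefSeq promoter windows (build GRCh38.p14, 250 bases before to 50 after a gene's start) were matched for 7 of the 8 genes, the exception being PDCD1LG2. The stretches below are the parts of 3 windows that lie before any annotated exon, shown because CD274 rose with acetate while PVR and NECTIN2, the related pair described next, moved in opposite directions with it. They read 5′ to 3′ on the plus strand, with capitals marking motif matches found on either strand. CD274 is chr9:5450292-5450502, PVR is chr19:44643660-44643797 and NECTIN2 is chr19:44846047-44846174.
CD274: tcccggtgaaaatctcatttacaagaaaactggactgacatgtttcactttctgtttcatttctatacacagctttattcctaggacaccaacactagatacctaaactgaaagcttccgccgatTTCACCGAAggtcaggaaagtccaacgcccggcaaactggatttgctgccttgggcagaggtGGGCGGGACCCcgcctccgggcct
PVR: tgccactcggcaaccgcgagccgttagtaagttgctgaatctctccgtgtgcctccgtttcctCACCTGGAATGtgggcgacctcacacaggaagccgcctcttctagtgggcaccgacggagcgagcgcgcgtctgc
NECTIN2: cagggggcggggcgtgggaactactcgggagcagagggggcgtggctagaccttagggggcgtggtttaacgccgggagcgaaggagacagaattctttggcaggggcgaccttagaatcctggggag
In the CD274 stretch the STAT motif TTCNNNGAA matched at -125 from the RefSeq start, and the NF-κB consensus motif matched at -63 and -62, as overlapping matches on the 2 strands. The PVR stretch held the E-box CAGGTG of SNAI and ZEB factors (on the minus strand, at -187) overlapping the TEAD motif GGAATG at -182, and the NECTIN2 stretch held no motif searched. Of 35116 windows, 7.66% held the STAT motif, 58.7% the NF-κB motif, 20.6% the E-box and 14.03% the TEAD motif. Among the 7 windows the STAT motif stood only in CD274, the E-box and the TEAD motif only in PVR, and the NF-κB motif in all 7. The SMAD motif CAGACA (16.9% of windows) matched only in PVR, downstream of the start. The palindrome GTCTAGAC (0.202%) and the AP-1 motif TGANTCA (7.71%) matched in none of the 7. A match is a run of letters and not a measured binding site.

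PVR and NECTIN2, the ligands of TIGIT and CD226, were the most abundant of the 8 in control and parted under acetate. PVR (ENSG00000073008.14, chromosome 19, 44643798 to 44663583) was at 259.4, 259.8, 258.7 and 263.7 CPM in control and at 245.9, 257.6, 240.4 and 261 CPM with TGF-β1. With acetate it was at 183.2, 175.8, 176.6 and 184.4 CPM, below every other library. TGF-β1 gave no call for PVR (-0.05 ± 0.03, edgeR adjusted p = 0.24, 95% interval -0.12 to 0.03). Acetate lowered it by a log2 fold change of -0.47 ± 0.04 (edgeR adjusted p = 1.2e-08), and it stood at -0.53 ± 0.03 against control (edgeR adjusted p = 3.9e-11).

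NECTIN2 (ENSG00000130202.9, chromosome 19, 44846175 to 44889228) begins 182592 bp beyond the end of PVR. Control libraries held 74.2, 68.0, 73.0 and 75.2 CPM and TGF-β1 libraries 64.6, 70.3, 65.7 and 70.9 CPM, which overlap. Acetate libraries held 123.6, 109.2, 123.2 and 116.2 CPM, above all 8 others. The change with TGF-β1 did not pass (-0.09 ± 0.04, edgeR adjusted p = 0.060), and its side of the threshold depended on the setting (adjusted p from 5.6e-04 to 0.18). It passed with library totals (-0.20, edgeR adjusted p = 5.6e-04), in DESeq2 (adjusted p = 0.046), with the filter of 1 CPM (edgeR adjusted p = 0.029) and without control library S2 (0.0022) or S3 (0.047) or TGF-β1 library S18 (0.046). In the authors' deposited table this comparison has a q-value of 0.018. Acetate raised NECTIN2 1.75-fold (0.81 ± 0.05, edgeR adjusted p = 4.0e-10), and it stood at 0.70 ± 0.05 above control (edgeR adjusted p = 6.2e-11). For PVR with TGF-β1, library totals likewise gave a call (-0.15, edgeR adjusted p = 0.0011, with 0.0011 to 0.59 over the alternatives).

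PVR per kb was 2.66 ± 0.114 times NECTIN2 per kb in control (2.59 to 2.83 over libraries) and 2.75 ± 0.0521 times with TGF-β1 (2.71 to 2.82). With acetate the ratio was 1.13 ± 0.0622 (1.06 to 1.19). The 8 libraries without acetate overlapped in this ratio, and the 4 with acetate lay apart from them.

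**Figure D3:**
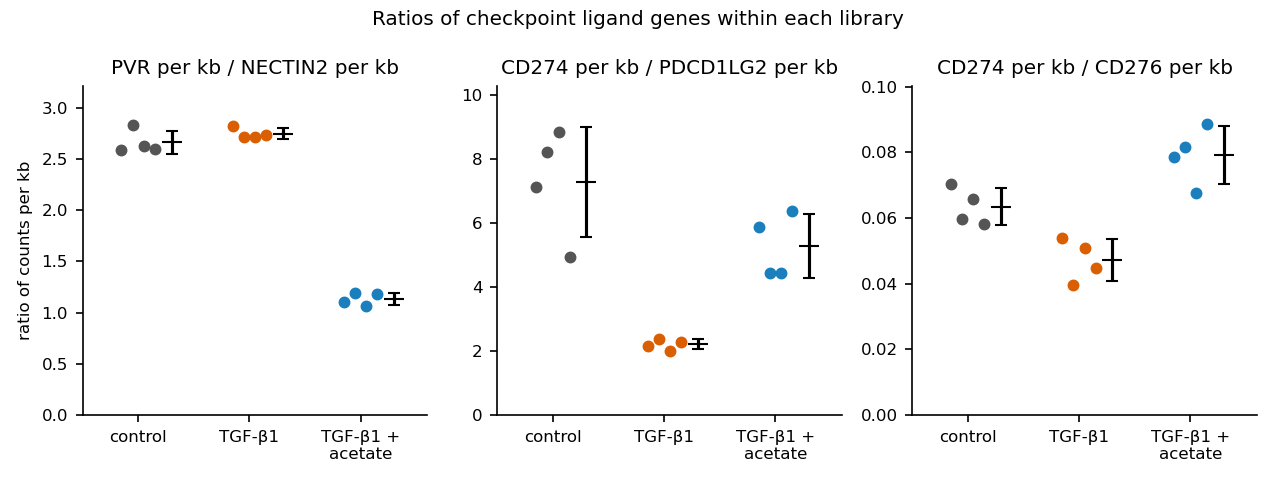
Ratios of counts per kb of the longest transcript within each library (vertical axes from 0) for PVR over NECTIN2, CD274 over PDCD1LG2 and CD274 over CD276, 1 point a library, with group mean and SD (n = 4). The PVR to NECTIN2 ratio falls from near 2.7 in the libraries without acetate to 1.13 ± 0.0622 with it, and the CD274 to PDCD1LG2 ratio is lowest with TGF-β1 alone. In control the latter rests on 5 to 12 counts of PDCD1LG2, which passed the filter through the treated groups.

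Both genes overlap others. The last part of PVR shares exon positions with CEACAM19 on the same strand (27.2, 29.6 and 22.4 CPM in control, TGF-β1 and acetate), and NECTIN2 shares exon positions with AC011481.2 on the opposite strand (4.49, 4.73 and 10.05 CPM). If counting ignored the strand, reads of NECTIN2 and its antisense partner cannot be told apart. AC011481.2 rose with acetate by 1.10 ± 0.08 on the log2 scale (edgeR adjusted p = 1.3e-08). The part of shared reads in the values of NECTIN2, PVR and CEACAM19 was not tested.

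Along chromosome 19, genes next to and between PVR and NECTIN2 moved in both directions with acetate. CEACAM19, BCL3 and TOMM40 fell, with log2 fold changes of -0.39, -0.34 and -0.43, as did ZNF180 (-0.24), and IGSF23 did not pass (-0.20). The value of CEACAM19 may hold reads of PVR, with which it shares exon positions. BCAM, which encodes a laminin receptor, rose by 1.27 and CEACAM16 by 1.79. CEACAM16, at 0.256 CPM with TGF-β1 and 0.908 CPM with acetate, lies near the minimum count with TGF-β1, so its rise is only a description. APOE, a lipoprotein gene that starts 262.0 kb from PVR, rose by 3.48. Around CD274 on chromosome 9, PLGRKT fell with acetate (-0.45), RIC1 did not pass (0.02), and RLN2 (1.21) and ERMP1 (0.77) rose. RLN2, at 0.212 CPM with TGF-β1 and 0.485 CPM with acetate, passed the filter through its acetate libraries. Its rise was fixed by that and is only a description. With TGF-β1 the neighbours PLGRKT (-0.42) and ERMP1 (-1.38) fell and RIC1 rose (0.31), while RLN2 did not pass (-0.55).

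**Figure D4:**
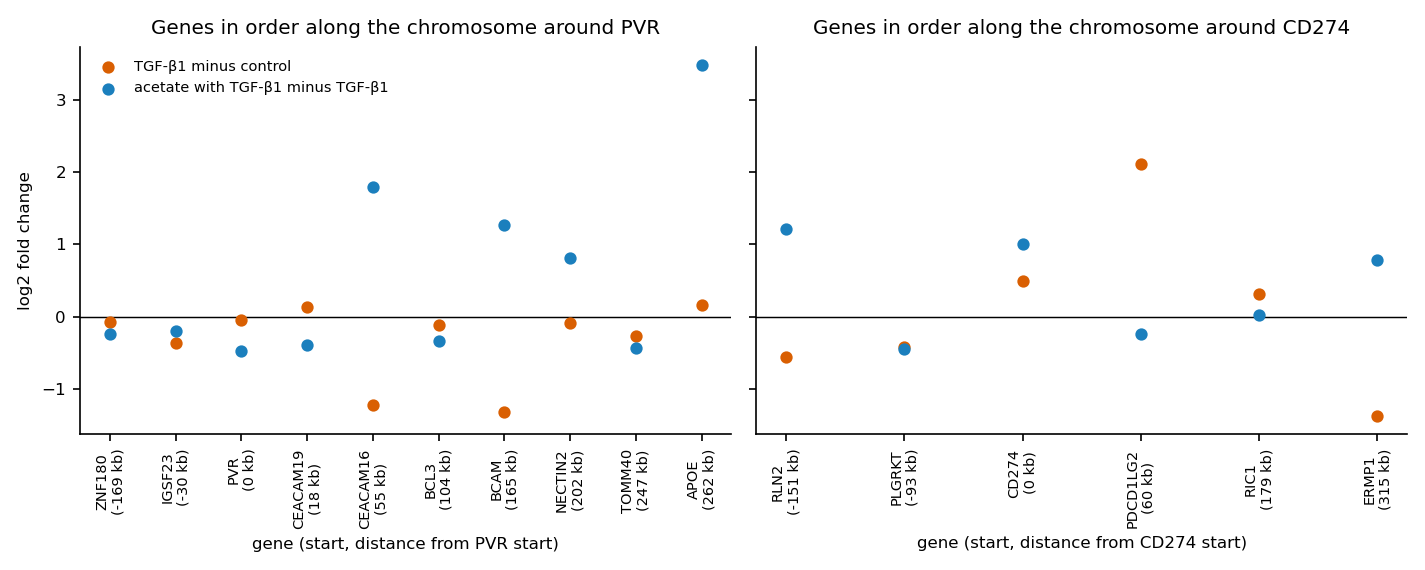
Log2 fold changes (vertical axis) of tested protein-coding genes in chromosome order around PVR and NECTIN2 and around CD274 and PDCD1LG2, with the distance of each start from that of PVR or CD274 in kb. Neighbours lie on both sides of 0 in both comparisons, with APOE at 3.48 the highest for acetate.

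The other nectin and nectin-like genes of the adhesion family divided as well: with TGF-β1 2 of 5 tested rose and 3 fell, and with acetate 4 of 6 rose and 2 fell. CADM3, listed in only 1 of the tables, was tested with acetate alone. Its rise there (log2 fold change 1.97), counted above, is only a description. NECTIN4 went from 0.554 ± 0.106 CPM in control libraries to 7.61 ± 0.410 with TGF-β1 and 4.60 ± 0.376 with acetate. NECTIN1 and CADM4 rose with acetate (log2 fold changes 0.87 and 1.51), while with TGF-β1 NECTIN3 fell by 0.27 and CADM1, a ligand of the lymphocyte receptor CRTAM, rose by 0.38. Of 13 listed immune cell receptors for checkpoint and related ligands, 8 were in neither table, among them PDCD1, CTLA4 and TIGIT. Not all of the 13, CTLA4 for example, bind a product of the 8 genes. CD96, a receptor for PVR, had 4, 2, 0 and 2 counts in control, 178, 94, 149 and 151 with TGF-β1 and 31, 40, 37 and 50 with acetate. PVRIG, a receptor for NECTIN2, was at 5.68 ± 0.581, 2.13 ± 0.379 and 5.22 ± 0.382 CPM in the 3 groups. CD226, HAVCR2 and LAG3 reached at most 1.31, 1.09 and 1.69 CPM as group means.

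CD47 encodes the signal against phagocytosis (ENSG00000196776.14, chromosome 3, 108043298 to 108091025, minus strand). It was at 55.3, 48.0, 51.7 and 50.2 CPM in control, at 57.0, 53.9, 54.8 and 56.2 CPM with TGF-β1 and at 65.1, 69.1, 68.7 and 68.0 CPM with acetate. Control and TGF-β1 libraries overlapped through control library S1, and the acetate libraries lay above all others. Acetate raised CD47 1.23-fold (0.30 ± 0.04, edgeR adjusted p = 3.1e-06), and both agents gave 0.40 ± 0.04 against control (edgeR adjusted p = 4.6e-08). The call for TGF-β1 (0.12 ± 0.04, edgeR adjusted p = 0.023) depended on the setting, with adjusted p from 0.014 to 0.79. It was lost in the fit scaled by library totals (0.02, edgeR adjusted p = 0.79), in DESeq2 (adjusted p = 0.055) and without control library S2 (edgeR adjusted p = 0.25), S3 (0.12) or S4 (0.16) or TGF-β1 library S18 (0.054).

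Of 9 other genes that set whether macrophages engulf a cell, 7 rose and 1 fell with TGF-β1 (median log2 fold change 0.83, all genes 0.02), and 7 rose and 2 fell with acetate (median 0.20). THBS1 encodes thrombospondin-1, a secreted ligand of CD47, and moved far more than CD47 itself: 168 ± 7.80 CPM in control, 1917 ± 40.3 under TGF-β1 and 280.4 ± 32.9 once acetate was added. SIRPA, which encodes the receptor of CD47, moved the same way, from 31.0 ± 2.25 to 153 ± 8.95 and then 48.2 ± 3.70 CPM. CALR, whose product on the surface invites engulfment, rose 2.00-fold with TGF-β1. MFGE8, a bridge between dying cells and phagocytes, was at 41.3 ± 0.613, 73.4 ± 4.75 and 202 ± 12.1 CPM, and LRP1, a receptor for calreticulin, at 25.2 ± 4.80, 58.1 ± 4.02 and 132 ± 17.2 CPM.

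NT5E had the largest change of the 8 genes with TGF-β1 (ENSG00000135318.11, chromosome 6, 85449584 to 85495791). It was at 43.9, 41.7, 42.0 and 41.1 CPM in control and at 248.5, 258.4, 247.4 and 257.2 CPM with TGF-β1. Acetate libraries held 225.3, 213.9, 207.1 and 230.6 CPM, below every TGF-β1 library and about 5 times the control level. NT5E rose 6.02-fold with TGF-β1 (2.59 ± 0.04, edgeR adjusted p = 2.1e-18), an absolute change exceeded by 4.03% of tested genes. It was 5.20-fold above control with both agents (2.38 ± 0.04, edgeR adjusted p = 1.3e-19). The fall with acetate was small (-0.20 ± 0.04, edgeR adjusted p = 2.7e-04) and did not pass with library totals (-0.06, edgeR adjusted p = 0.17, with 4.4e-07 to 0.17 over the alternatives).

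The other adenosine genes, which supply, transport, sense or clear adenosine, divided with TGF-β1: 4 of 14 tested rose, 7 fell and 3 did not pass (median log2 fold change -0.52, all genes 0.02). With acetate 11 of 15 rose and 3 fell (median 1.09, all genes 0.03), against 33.3% and 30.4% of all genes tested. ALPL and ENTPD8, at 0.134 and 0.191 CPM with TGF-β1, passed the filter through their acetate libraries (0.942 and 1.63 CPM), which fixed their direction. ENTPD8 likewise entered the count for TGF-β1 through control (1.01 CPM). CD38, a NAD-consuming enzyme on another route to adenosine, was at 18.5 ± 0.504 CPM in control, 0.877 ± 0.118 under TGF-β1 and 4.75 ± 0.402 once acetate was added. Of the adenosine receptors, ADORA1 rose with TGF-β1 from 1.28 ± 0.177 to 8.10 ± 0.266 CPM and ADORA2B fell from 7.87 ± 0.154 to 1.74 ± 0.336 CPM. The nucleoside transporter genes SLC29A1 and SLC29A2 rose with acetate by 1.09 and 1.58 on the log2 scale. ENTPD1 (CD39), named outside the rule because it makes the AMP that NT5E uses, was at 3.08 ± 0.328, 2.88 ± 0.239 and 2.13 ± 0.302 CPM in the 3 groups.

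LGALS9 was low in every group (ENSG00000168961.16, chromosome 17, 27629798 to 27649560). Control libraries held 0.471, 0.959, 0.409 and 0.771 CPM, TGF-β1 libraries 1.25, 0.742, 1.11 and 0.950 CPM and acetate libraries 1.06, 1.38, 1.04 and 1.42 CPM, from 16 to 62 counts. Only control and acetate libraries did not overlap, and there LGALS9 was higher by 0.88 ± 0.24 (edgeR adjusted p = 0.0029). The call for TGF-β1 (0.63 ± 0.26, edgeR adjusted p = 0.041) depended on the setting, with adjusted p from 0.0095 to 0.14. The call was absent from the fit scaled by library totals (0.53, edgeR adjusted p = 0.079) and lost without control library S1 (0.14) or S3 (0.13) or TGF-β1 library S15 (0.11), S17 (0.091) or S18 (0.056). Acetate against TGF-β1 gave 0.27 ± 0.19 (edgeR adjusted p = 0.23, 95% interval -0.14 to 0.69). LGALS9 has the near-identical copies LGALS9B and LGALS9C and shares exon positions with AC015688.4 on the same strand (3.87, 6.68 and 6.35 CPM), so its own level is uncertain.

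Among 7 other galectin genes tested with TGF-β1, 1 rose and 5 fell, and among 8 tested with acetate, 7 rose and the other did not pass. LGALS4, counted in both, was at 0.546, 0.208 and 0.538 CPM in control, TGF-β1 and acetate. It passed the filter through control in the first comparison and through acetate in the second, which fixed both directions. Of all genes tested, 34.1% were called higher with TGF-β1 and 33.3% with acetate. LGALS1, an abundant galectin that also acts on T cells, was at 198 ± 7.31, 291 ± 12.3 and 331 ± 16.3 CPM in the 3 groups. LGALS3 was at 21.8 ± 0.784, 18.7 ± 0.803 and 35.9 ± 1.43 CPM, and its binding partner gene LGALS3BP at 141 ± 6.34, 109 ± 7.07 and 203 ± 17.2 CPM. LGALS7, listed in 1 table, had 0 counts in all 4 TGF-β1 libraries and 12, 15, 26 and 59 counts with acetate. It passed the filter only through the acetate libraries, so its rise, counted above, was fixed and is only a description.

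Compared per kb of the longest transcript, the 8 genes spanned a wide range of levels. In control the order was PVR (78.3 CPM per kb), NECTIN2 (29.5), NT5E (10.8), CD276 (7.59), CD47 (7.55), CD274 (0.482), LGALS9 (0.210) and PDCD1LG2 (0.0698), and of neighbours in it only CD276 and CD47 overlapped over libraries. With TGF-β1 the order was PVR (75.6), NT5E (64.5), NECTIN2 (27.5), CD276 (14.2), CD47 (8.16), CD274 (0.670), LGALS9 (0.325) and PDCD1LG2 (0.306), and only the last 2 overlapped. With acetate it was NT5E (56.0), PVR (54.1), NECTIN2 (47.9), CD276 (16.98), CD47 (9.97), CD274 (1.34), LGALS9 (0.393) and PDCD1LG2 (0.258), and only NT5E and PVR overlapped. NT5E thus stood below PVR and NECTIN2 in control and level with PVR under both agents. With the length of all exons joined, CD276 and CD47 changed places in control, NT5E and PVR with acetate, and LGALS9 and PDCD1LG2 in both treated groups.

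Among 10 tested genes for surface ligands of NK cell receptors, 7 rose and 1 fell with TGF-β1 (median log2 fold change 0.79, all genes 0.02), and 7 rose and 3 did not pass with acetate (median 0.57). RAET1G and RAET1E, which encode ligands of the activating receptor NKG2D, were at 2.48 ± 0.106 and 3.12 ± 0.171 CPM in control and at 21.95 ± 1.32 and 18.1 ± 0.879 CPM with TGF-β1. ULBP1, another NKG2D ligand gene, went from 18.6 ± 0.755 to 1.57 ± 0.355 CPM. With acetate ULBP2 and MICB rose by log2 fold changes of 1.69 and 1.22, and HLA-E, a ligand of the inhibitory receptor NKG2A, rose by 0.59.

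Of the other immune regulators of tumour cells, 8 of 18 rose and 7 fell with TGF-β1 (median -0.06), and 12 of 17 rose and 3 fell with acetate (median 0.84). FGL2, at 0.181 CPM with TGF-β1 and 0.461 CPM with acetate, entered the count for acetate through its acetate libraries. So did TNFSF10, at 0.238 CPM with TGF-β1 and 2.05 CPM with acetate. The rises of both were thereby fixed. FGL1, a ligand of LAG-3, was at 58.6 ± 3.59 CPM in control, 2.52 ± 0.460 under TGF-β1 and 16.4 ± 1.78 once acetate was added. The complement inhibitor gene CD59 went from 215 ± 8.11 to 733 ± 29.1 CPM with TGF-β1 and PTGES, a prostaglandin E synthase gene, from 25.5 ± 2.66 to 88.5 ± 2.62 CPM. TNFSF9 and CD70, which encode T cell costimulators, were at 3.84 ± 0.567 and 7.06 ± 0.128 CPM in control and at 26.4 ± 2.11 and 30.4 ± 3.18 CPM with acetate. HMGB1 was at 219 ± 9.60, 402 ± 11.8 and 237 ± 2.79 CPM.

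**Figure D5:**
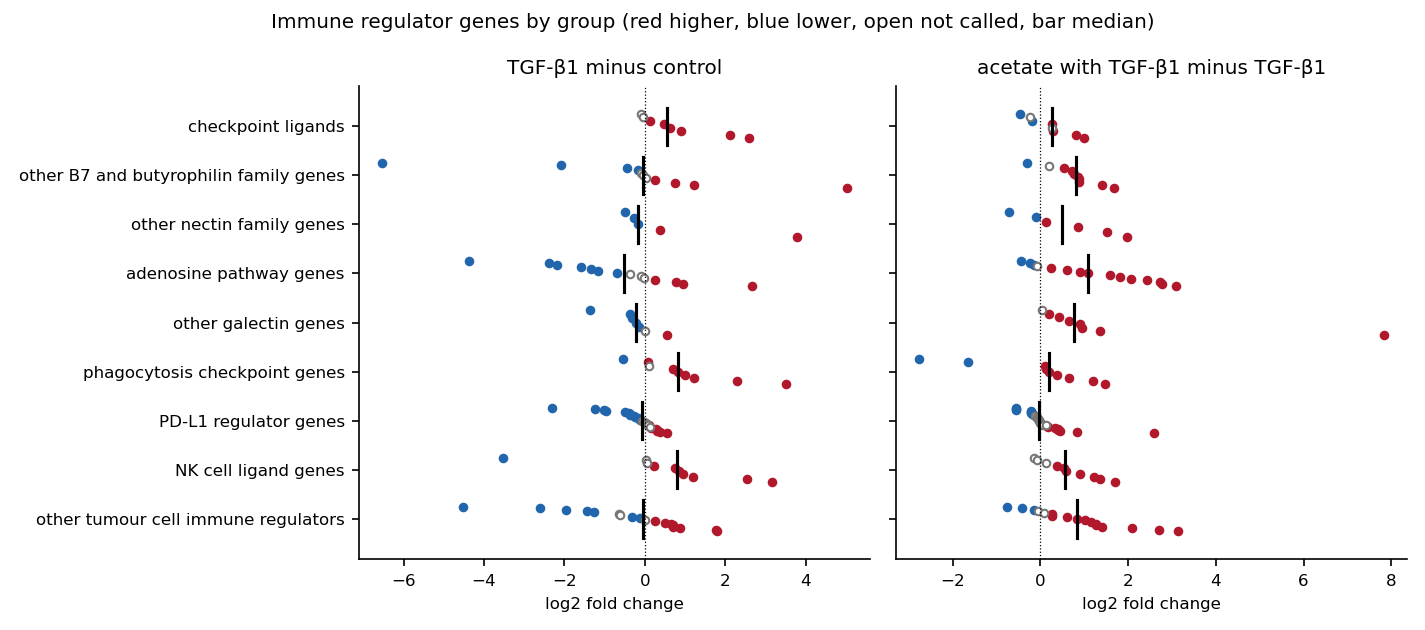
Log2 fold changes (horizontal axes) of the 8 checkpoint ligands and of 8 lists of other immune genes for TGF-β1 against control (left) and acetate added to TGF-β1 (right), 1 point a gene, red or blue where called higher or lower, open where not called, with the list median as a bar. The checkpoint ligands have medians of 0.56 and 0.27, and the outermost points, VTCN1 on the left and LGALS7 on the right, are fitted values of genes with counts near 0 in the TGF-β1 libraries.

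Genes whose pattern over the 12 libraries was nearest to each of the 8 were sought among 10410 candidates by the distance between log2(CPM + 0.5) values centred on each gene's mean. For PVR they were NUP50 (distance 0.0929), TCF12 and C22orf39, and for CD47 they were HSD17B4 (0.117), OXCT1 and WDR44. NT5E was nearest to PLEK2 (0.180) and DIXDC1, and CD276 to OCIAD2 (0.187), SQLE and LOXL2. For NECTIN2 the nearest were TMEM63B (0.210), PDXK and ARL6IP5, and for CD274 STK38L (0.303) and KIAA1462. PDCD1LG2 was nearest to PHTF1 (0.346), KIAA0922 and C1orf216, and LGALS9 to ZBED6 (0.473), VPS13C and FRYL. PLEK2, for example, went from 13.7 CPM in control libraries to 85.0 with TGF-β1 and 76.5 with acetate, beside 42.2, 253 and 219 CPM for NT5E. The 12 libraries fall into 3 groups, so nearness here mostly describes the 3 group levels. For PDCD1LG2 and LGALS9, near 1 CPM or below, the added 0.5 CPM compresses the pattern: PHTF1 went from 22.9 to 41.1 CPM with TGF-β1, against a fitted 4.31-fold difference for PDCD1LG2. Other pseudocounts were not tried. With Pearson correlation as the measure, 0 or 1 of the 3 genes stayed for each of the 8.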

How the data were processed

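What was measured is the gene count in 12 libraries of A549 cells. The values used are raw counts per gene, made by the authors and deposited in 2 tables of 24459 and 24745 genes, with 23771 genes in both and identical TGF-β1 counts in all of them. Per the labels' protocols, stranded total RNA libraries were read as paired ends of 75 bp. Per the submitters' processing notes, bcl2fastq, HISAT2, limma and build hg38 were used. For versions, the counter and its strand setting, nothing is given in the sources used here. The authors' deposited log2 fold changes with their p-values and q-values were used only where named. A further 32 columns of values per library were not used.

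Genes were filtered with filterByExpr (at least 10 counts, and 15 in total), normalised by TMM and tested with glmQLFit and glmQLFTest in edgeR 4.0.16 (R 4.3.3), two-sided, with Benjamini-Hochberg adjustment over all genes tested, and calls were made at 0.05. TGF-β1 against control and acetate against TGF-β1 were each fitted in their own table of 8 libraries, and acetate against control in all 12 on shared genes. TMM factors were 1.00 to 1.03 in control, 0.930 to 0.973 with TGF-β1 and 1.03 to 1.06 with acetate. SE is the log2 fold change divided by the root of its F statistic. Levels are CPM from the 12-library fit, compared between genes per kb of the longest transcript in GENCODE 29, to which 99.1% of the tables' genes were matched by identifier. CD47 has other coordinates there than in the tables, whose coordinates are printed. Scripts were checked on simulated counts. Alternatives were DESeq2 1.42.0, limma-voom (limma 3.58.1), library totals, no filter, a filter of 1 CPM in 4 libraries, other sets of libraries in the fit, and leaving out each library.

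The 8 genes and the lists were chosen with earlier results of these data known. Beside the 8, genes were named by rule: the 3 with the smallest p in each list and comparison, markers above 1 CPM in a group, the 3 most like each of the 8, and the neighbours of the paired genes (2 tested protein-coding genes on each side and those between). Some genes that the rule names are not reported here, although counts include them. Some are given in a further comparison, and absent markers and receptors are named as absent. A planned comparison of the protein sequences was not run. The TGF-β response check and the list of A549 and lung epithelial markers served to check the labels: 8 of 9 and 1 of 12 tested genes rose with TGF-β1, and 1 and 9 fell. Of immune cell markers 3 of 6 tested rose with TGF-β1 and 2 fell, of receptors 2 of 5 rose and 1 fell, and of endothelial and fibroblast markers all 7 tested rose. Of all genes tested, 34.1% were called higher and 32.8% lower. DCN, FAP and TEK (0.0264, 0.0566 and 0.131 CPM in control) and the receptor gene CD96 (0.0401 CPM) passed the filter only through their TGF-β1 libraries. Their rise was fixed by that and is only a description. CEACAM6, among the epithelial markers that fell, passed only through control, which fixed its fall in the same way.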

Additional observations from a re-analysis of the deposited data

How the results depend on the processing

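No direction of the 8 genes reversed under any alternative run, and the numbers of genes called and of these genes called stayed within 1.5 times in all of them. Of the fold changes of the 8 genes under alternatives, 344 kept their side of the threshold, 13 lost a call and 7 gained one. Lost or gained calls concern CD47, LGALS9, NECTIN2 and PVR for TGF-β1 and NT5E for acetate, with values given beside each gene; the cause was not tested. All 8 calls of both agents against control held in every alternative that tested the gene. For PDCD1LG2 this carries no weight, since it passed the filter through the treated groups. With single libraries left out, 14297 to 14702 genes were called for TGF-β1, 13523 to 14302 for acetate and 15463 to 16184 for both agents against control, and 5 to 6, 6 and 8 of the 8 genes. With the filter of 1 CPM, PDCD1LG2 was not tested in any comparison and LGALS9 not for TGF-β1 against control. No paired analysis was possible because the count columns carry no replicate numbers, so the planned replicate block was not run. Depth limits PDCD1LG2 and LGALS9, whose control libraries hold 5 to 12 and 16 to 47 counts.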
